A study of Panax japonicus with 15 samples.

Results

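The transcript clusters described here are those that follow Cluster-64249.124918, an abundant transcript of the fruit wall of Panax japonicus whose level differed widely between libraries of the same fruit-colour period. They are the rows of the deposited table with a mean TPM (a transcript's level per length, scaled to the same total in each library) of at least 5 over the 15 libraries and a Pearson correlation of at least 0.9 with Cluster-64249.124918 on the log2(TPM + 1) scale, that row included. The rule found 6 of the 32754 rows with a mean TPM of at least 5, out of 462117 rows in all. They were Cluster-64249.124918, Cluster-64249.132825, Cluster-64249.117700, Cluster-64249.110193, Cluster-64249.170613 and Cluster-64249.134855. Their identifiers share 1 prefix, as did 93.6% of the 32754 rows. The members were thus chosen by their TPM in all 15 libraries, so the levels, orders and correlations of the 6 are a description of these libraries and carry no test.

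The libraries were made from pericarp, the fruit wall that remains once the seed is taken out, of a mountain-grown medicinal ginseng relative. The study asked how gene expression goes with fruit colour, and sequenced 3 libraries in each of 5 periods that the labels call R, B, P, G and Y. The labels enter the period as the treatment and name no applied agent, genotype, age or control. They do not spell out the letters or order the periods. The 3 libraries of a period are called biological replicates in the protocol, with no word on the plants or harvest days behind them, so the spread between them may be technical.

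In general, the wall of a fleshy fruit changes colour as chlorophyll is broken down and carotenoids or anthocyanins build up. Transcripts for cell-wall softening, pigments and defence are among those known to change most as a fruit ripens. The table does not pair its identifiers with gene names, so no function or pathway is given for any of the 6, and the labelled tissue could not be set against marker genes.

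Some libraries lay close to a library of another period across the 138664 transcript clusters tested. B replicate 1 correlated best with R replicate 3, at a Pearson correlation of 0.714 on the log2(TPM + 1) scale, and at 0.674 and 0.675 with B replicates 2 and 3. P replicate 3 was closest to B replicate 1, and G replicate 2 to Y replicate 1. R replicate 3 was closest to R replicate 2, at 0.756. The number of rows above 0 TPM ranged from 168964 to 177437 in R, from 161544 to 176229 in B, from 97466 to 187300 in P, from 145724 to 172147 in G and from 157065 to 180948 in Y. TPM keeps no read depth, so the reads behind each value are unknown.

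Cluster-64249.124918 was among the most abundant transcripts of some R and B libraries and stood below 30 TPM in every P and G library. It stood at 1917, 1257 and 166 TPM in R replicates 1, 2 and 3, and at 50.9, 3353 and 2562 TPM in B replicates 1, 2 and 3. Y replicates 1, 2 and 3 held 212, 4.70 and 65.0 TPM, and G replicates 1, 2 and 3 held 3.96, 27.8 and 9.70 TPM. It was listed at 0 in P replicates 1 and 2 and stood at 2.77 TPM in P replicate 3. R replicate 3 and B replicate 1 were therefore the low libraries of their periods, and both lay below Y replicate 1. The highest library exceeded the lowest 11.5-fold within R, 65.9-fold within B, 45.1-fold within Y and 7.03-fold within G. The R libraries lay within the range of the B libraries. Its mean was 1114 ± 884 TPM in R and 1989 ± 1724 TPM in B (SD, n = 3 each), so the difference between these means was smaller than the SD within B. With a mean of 642 TPM over the 15 libraries, it held rank 53 among the 32754 rows. In a whole-tissue library, fewer cells that make a transcript and less of it per cell cannot be told apart.

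Cluster-64249.132825 was the closest follower and nearly as abundant, with a mean of 504 TPM and rank 82. It stood at 1163, 673 and 106 TPM in R replicates 1, 2 and 3, and at 59.2, 2433 and 2728 TPM in B replicates 1, 2 and 3. Values in Y replicates 1, 2 and 3 were 230, 4.67 and 99.2 TPM. In G it ranged from 1.46 to 26.6 TPM and in P from 2.26 to 9.94 TPM. The same libraries were low within R, B and Y as for Cluster-64249.124918, while the order of B replicates 2 and 3 was the other way round. Its correlation with Cluster-64249.124918 was 0.977 over the 15 libraries, and 0.978 once each period's mean had been subtracted, so the likeness held for the swing among replicates as well as for the periods.

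Within R, B and Y, the ratio of these abundant transcripts moved far less than either level. Cluster-64249.132825 over Cluster-64249.124918 was 0.606, 0.535 and 0.637 in R replicates 1, 2 and 3, against 1.16, 0.726 and 1.07 in B replicates 1, 2 and 3. The 3 R libraries had lower ratios than the 3 B libraries, although the levels overlapped. How often the ratio of other pairs of rows does so was not counted, so nothing is read from it. Within R the ratio thus spanned 0.535 to 0.637 while Cluster-64249.124918 spanned 11.5-fold. The ratio was 1.09, 0.994 and 1.53 in Y replicates 1, 2 and 3 and 0.369, 0.954 and 1.58 in G replicates 1, 2 and 3. In P replicate 3 it was 3.59, and the other P libraries gave none because Cluster-64249.124918 was listed at 0.

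**Figure D1:**
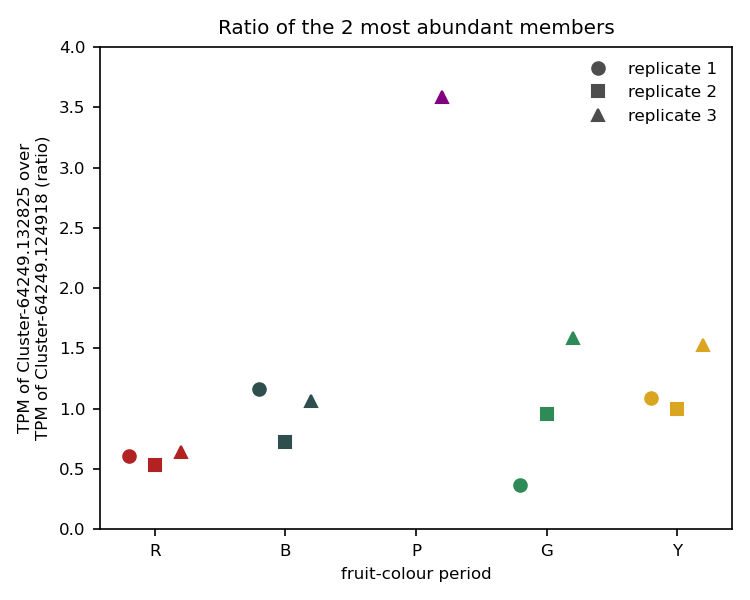
The ratio of the TPM of Cluster-64249.132825 to the TPM of Cluster-64249.124918 (vertical axis, linear) is plotted for each library by fruit-colour period; marker shape gives the replicate number. The R libraries lie between 0.535 and 0.637 and the B libraries between 0.726 and 1.16; P replicates 1 and 2 have no point because Cluster-64249.124918 was listed at 0 there.

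Cluster-64249.117700 had the same low libraries at a far lower level. It stood at 31.5, 51.9 and 10.3 TPM in R replicates 1, 2 and 3, and at 4.73, 111 and 128 TPM in B replicates 1, 2 and 3. Y replicates 1, 2 and 3 held 25.4, 0.320 and 8.85 TPM. R replicate 3, B replicate 1 and Y replicate 2 were again lowest in their periods, but R replicate 2 and not R replicate 1 was highest in R. It did not exceed 1.19 TPM in G or 0.220 TPM in P, where replicates 1 and 2 were listed at 0. Its correlation with Cluster-64249.124918 was 0.967, and 0.935 with period means subtracted.

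Cluster-64249.134855 was the rarest of the 6, with a mean of 5.53 TPM, just over the minimum of the rule. It stood at 18.2, 9.70 and 6.53 TPM in R replicates 1, 2 and 3. In B replicate 1 it was listed at 0, against 24.9 and 18.7 TPM in B replicates 2 and 3. Outside R and B it reached at most 2.07 TPM, in Y replicate 1, and it was listed at 0 in 6 of the 15 libraries. Its correlation was 0.916, and lay just under 0.9 with period means subtracted.

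Cluster-64249.110193 swung among the B and Y libraries, while its R libraries were nearly even. It stood at 34.0, 36.0 and 30.0 TPM in R replicates 1, 2 and 3, which is 33.3 ± 3.03 TPM (SD, n = 3). In B replicates 1, 2 and 3 it stood at 14.2, 66.6 and 51.8 TPM, which is 44.2 ± 27.0 TPM (SD, n = 3). The low value of B replicate 1 was thus shared, and that of R replicate 3 nearly absent. Y replicates 1, 2 and 3 held 7.13, 0.510 and 4.27 TPM, in the same order as Cluster-64249.124918, while G and P lay at or below 3.11 TPM. Its correlation was 0.935, and 0.879 with period means subtracted.

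Cluster-64249.170613 followed the periods but showed little of the swing. It stood at 20.7, 21.4 and 19.0 TPM in R replicates 1, 2 and 3 and at 19.9, 29.7 and 24.6 TPM in B replicates 1, 2 and 3. The means were 20.4 ± 1.25 TPM in R, 24.7 ± 4.88 in B, 9.18 ± 2.67 in P, 13.2 ± 4.13 in G and 16.8 ± 1.53 in Y (SD, n = 3 each). Its highest and lowest libraries differed 1.13-fold within R and 1.49-fold within B, against 11.5-fold and 65.9-fold for Cluster-64249.124918. Pearson correlation does not depend on the size of a change, so this small and steady pattern met the rule at 0.920, and fell to 0.699 with period means subtracted.

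**Figure D2:**
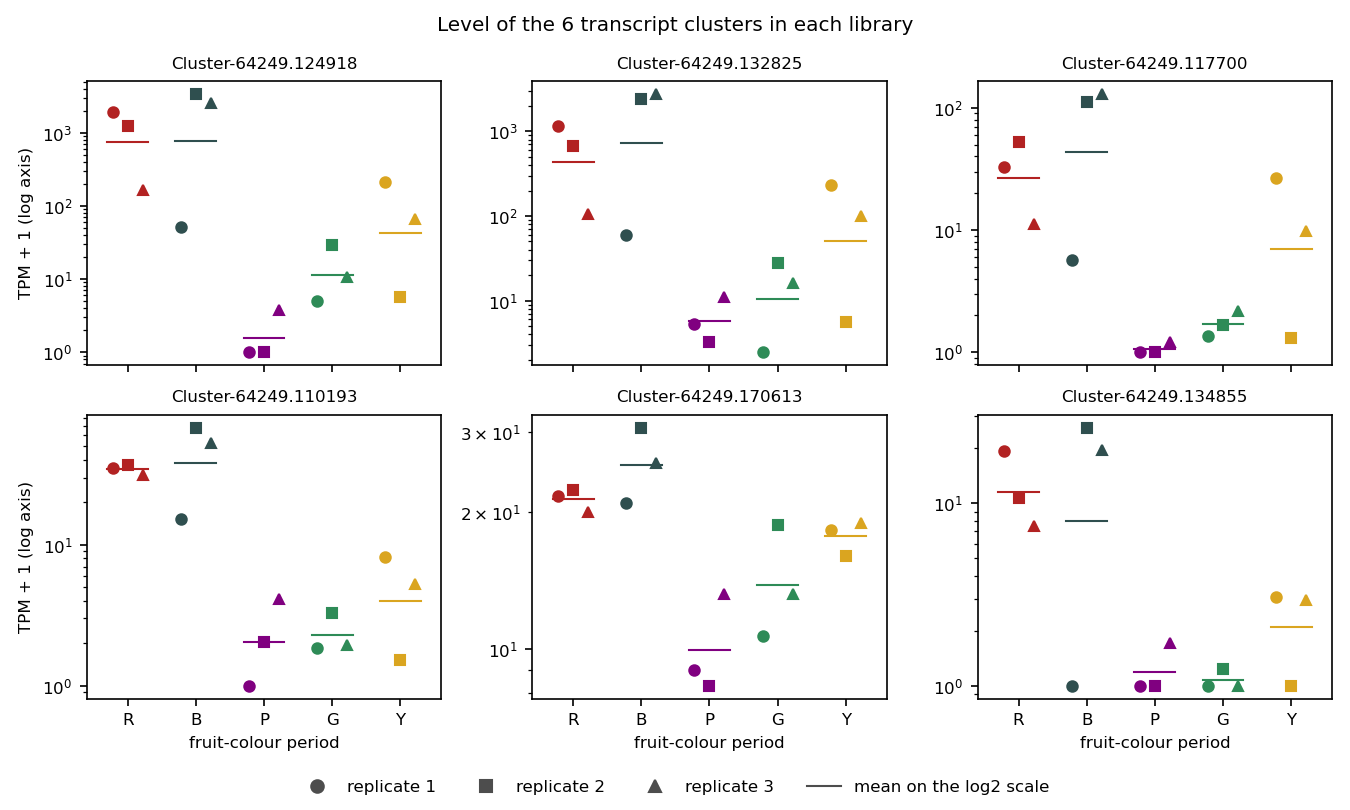
TPM + 1 on a log axis for each of the 6 transcript clusters in the 15 libraries, by fruit-colour period; marker shape gives the replicate number and lines the mean on the log2 scale of 3 libraries. R replicate 3 and B replicate 1 lie lowest in their periods for all 6, by 11.5-fold and 65.9-fold below the highest library for Cluster-64249.124918 and by 1.13-fold and 1.49-fold for Cluster-64249.170613.

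Together the 6 took up a visible share of the RNA in only some libraries. They summed to 0.318%, 0.205% and 0.0338% of TPM in R replicates 1, 2 and 3, and to 0.0149%, 0.602% and 0.551% in B replicates 1, 2 and 3. Y replicates 1, 2 and 3 held 0.0494%, 0.00253% and 0.0197%, and no P or G library held over 0.00753%. Most of each sum in R and B came from the most abundant pair.

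All 6 had the same 4 highest libraries, namely B replicates 2 and 3 and R replicates 1 and 2, and each was higher in all 4 than in any of the 11 others. This pattern was seen in Cluster-64249.124918 itself and then counted: 99 of the 32754 rows had it, or 0.302%, and the rule favours it, so nothing is read from the 6 of 6. The other 93 rows with it did not reach a correlation of 0.9.

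The spread among replicates was wide in R, B and Y for some members and narrow for others. On the log2(TPM + 1) scale, the range from the lowest to the highest library was at least 2 for 3 of the 6 in R, for 5 in B, for 4 in Y, for 2 in G and for 1 in P. The same held for 12.9% of the 32754 rows in R, 18.6% in B, 12.7% in Y, 19.2% in G and 31.4% in P. The median range of the 6 was 1.79 in R, 4.59 in B, 3.37 in Y, 0.82 in G and 1.26 in P, beside 0.44, 0.73, 0.52, 0.76 and 1.03 over all these rows in the same order of periods. Of the 5 members besides Cluster-64249.124918, the order of the 3 replicates was exactly that of Cluster-64249.124918 for 2 in R, 3 in B, 3 in G and 4 in Y, where 14.3%, 11.7%, 14.6% and 11.4% of the 32754 rows had that order. Its tie at 0 in P replicates 1 and 2 gave no order to compare in P. In Y, replicate 2 was lowest for all 6, so the swing was not limited to R and B. The row that defines the set was chosen for its swing, and these counts describe its followers.

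**Figure D3:**
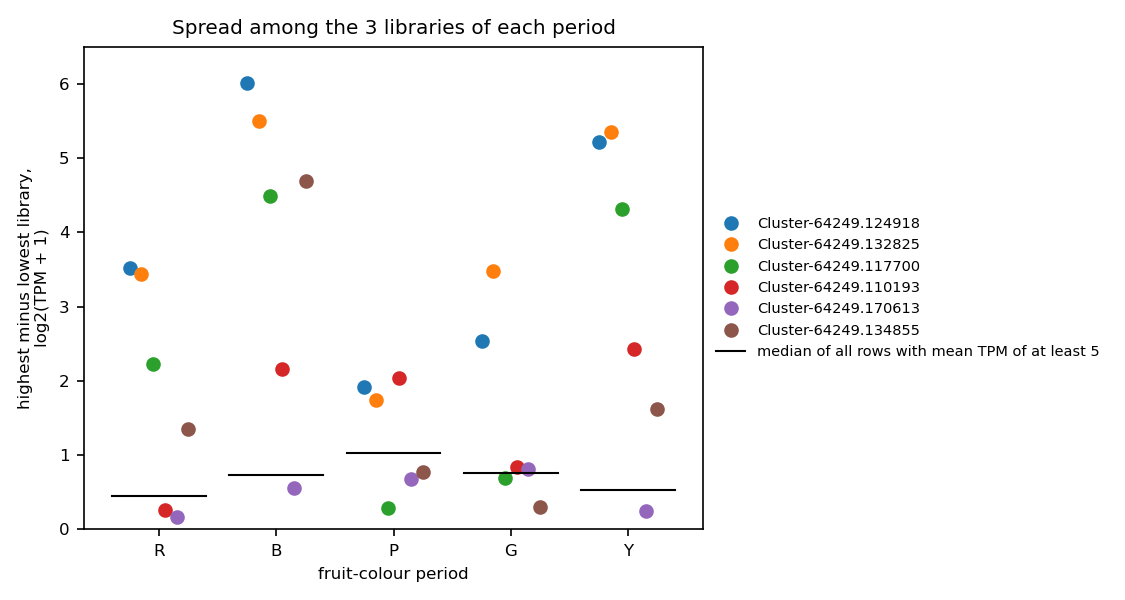
The highest minus the lowest of the 3 libraries of each fruit-colour period on the log2(TPM + 1) scale (vertical axis) is plotted for each of the 6 transcript clusters as a point; black lines give the median over all rows with a mean TPM of at least 5. Points of Cluster-64249.124918 lie at 3.52 in R, 6.02 in B and 5.22 in Y, while those of Cluster-64249.170613 lie at 0.17, 0.55 and 0.24.

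B replicate 1 stood far below its period's other libraries about as often as B replicates 2 and 3 did. R replicate 3 was low somewhat more often than the other R libraries. B replicate 1 lay at least 2 on the log2 scale below both other B libraries for 729 of 32754 rows, or 2.23%, the same number as for B replicate 2, and B replicate 3 did so for 768, or 2.34%. R replicate 3 did so within R for 778 rows, or 2.38%, against 475 for R replicate 1, or 1.45%, and 507 for R replicate 2, or 1.55%. Of the 6, 4 met this in B replicate 1 and 2 in R replicate 3. The 2 were Cluster-64249.124918 and Cluster-64249.132825, and both B replicate 1 and R replicate 3 were low in this sense for 82 of all rows, or 0.25%. In the other direction, B replicate 1 lay at least 2 above both other B libraries for 1103 rows, or 3.37%. This compared with 810 rows for B replicate 2, or 2.47%, and 896 for B replicate 3, or 2.74%. Within R it was 634, 561 and 577 rows for replicates 1, 2 and 3. The part of whole-library differences in the swing was not tested.

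Among themselves the 6 did not all reach the limit. Of the 15 pairs, 11 correlated at 0.9 or more. The lowest pair was Cluster-64249.170613 with Cluster-64249.134855 at 0.768, and the highest was Cluster-64249.124918 with Cluster-64249.132825. Following Cluster-64249.132825 in place of Cluster-64249.124918 gave 8 rows, which left out Cluster-64249.170613 and held the 5 other members. A set of this size was common: the median row had 2 others at 0.9 or more, 35.0% had none, and 41.0% had at least the 5 of Cluster-64249.124918.

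No wide gap set the members apart at the limit of 0.9. Cluster-64249.134855, Cluster-64249.170613 and Cluster-64249.110193 lay just inside, at 0.916, 0.920 and 0.935. Just outside were Cluster-64249.196095 at 0.897, Cluster-64249.110180 at 0.895 and Cluster-64249.144735 at 0.885. Cluster-64249.110180, the most abundant of these, stood at 43.1 ± 1.18 TPM in R and 47.9 ± 7.87 TPM in B, and at 23.8 ± 3.82 in P, 24.8 ± 5.36 in G and 35.5 ± 5.20 in Y (SD, n = 3 each). Its highest and lowest libraries differed 1.06-fold within R and 1.39-fold within B. Cluster-64249.196095 differed 1.40-fold within R and 1.22-fold within B, and Cluster-64249.144735 1.25-fold within R and 2.64-fold within B. In all, 28 rows besides Cluster-64249.124918 reached 0.85 and 101 reached 0.8.

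No row moved as tightly the other way. None correlated at -0.9 or below, and 15 did at -0.8 or below. The most negative were Cluster-64249.138040 at -0.876, Cluster-64249.164495 at -0.858 and Cluster-64249.93804 at -0.856. Cluster-64249.138040 stood at 29.5, 32.6 and 33.6 TPM in R replicates 1, 2 and 3 and at 75.4, 22.7 and 11.7 TPM in B replicates 1, 2 and 3, with 168 ± 38.4 TPM in P (SD, n = 3). B replicate 1 was thus its highest B library, and in Y its highest was replicate 2, at 138 TPM. Cluster-64249.164495 lay between 76.8 and 98.7 TPM in P and at most 27.1 TPM in R and B. Cluster-64249.93804 was listed at 0 in all R and B libraries and stood at 36.8, 75.0 and 17.6 TPM in P replicates 1, 2 and 3.

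**Figure D4:**
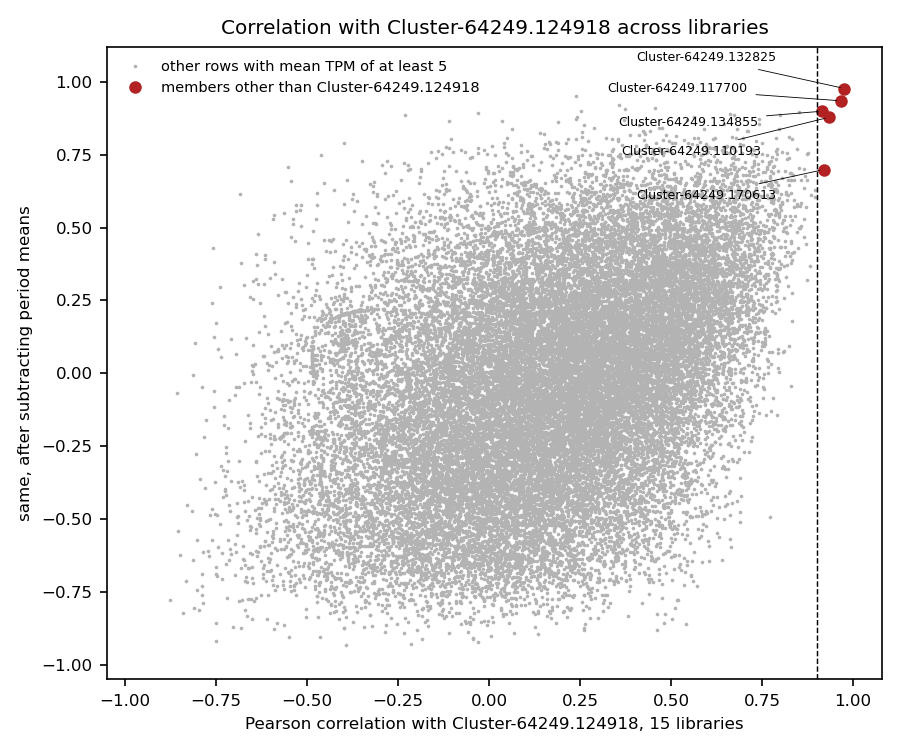
Each point is a row with a mean TPM of at least 5; the horizontal axis is its Pearson correlation with Cluster-64249.124918 on the log2(TPM + 1) scale over 15 libraries and the vertical axis the same after subtracting period means. The 5 other members lie right of the dashed line at 0.9; Cluster-64249.170613 lies lowest of them, at 0.699 on the vertical axis.

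The swing among replicates, taken apart from the periods, was shared by a partly different set. With period means subtracted, 6 rows besides Cluster-64249.124918 reached 0.9. Only Cluster-64249.132825 and Cluster-64249.117700 of these were members. The remaining rows, which no rule named and which were picked out from these correlations, were Cluster-64249.106318, Cluster-64249.169104, Cluster-64249.160659 and Cluster-64249.139585, with correlations over the undivided values of 0.240, 0.357, 0.455 and 0.373. Cluster-64249.106318 stood at 29.4, 28.6 and 18.2 TPM in R replicates 1, 2 and 3 and at 11.5, 26.9 and 23.2 TPM in B replicates 1, 2 and 3, but was highest in G, at 34.1, 51.2 and 42.3 TPM. It thus had the same low libraries as Cluster-64249.124918 in R and B, at a smaller size, with another pattern over the periods.

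When the members were chosen without a period, a minority of those chosen followed Cluster-64249.124918 in it. The rule over the 12 libraries outside R chose 11 rows besides Cluster-64249.124918, and in the R libraries 3 of them had its order of replicates, beside 13.6% of all rows that met the same minimum. Without B it chose 21, of which 5 had its order in B, beside 10.7%. Without Y it chose 39, of which 7 had its order in Y, beside 10.8%. The count was 6 of 18 in G, beside 14.1%. Without P it chose 16. A log2 range of at least 2 in the period left out was found for 3 of 11 in R, 5 of 21 in B and 9 of 39 in Y, beside 11.4%, 15.4% and 11.4% of all such rows. It was found for 1 of 18 in G and 4 of 16 in P, beside 16.3% and 24.4%. Cluster-64249.132825 was chosen each time, and kept the order of Cluster-64249.124918 in R, G and Y when each was left out, but not in B.

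For each of the 6, the range within B on the log2 scale exceeded the difference between the R and B means. The level of the set in a library, taken as the median over the 6 of log2(TPM + 1) minus each one's mean over the 15 libraries, averaged 2.04 ± 0.87 in R and 2.36 ± 2.09 in B (SD, n = 3 each), a difference of -0.31. With B replicate 1 and R replicate 3 both left out it was -1.02, and it turned positive without R replicate 3, at 0.19, or without B replicate 2 or 3, at 0.31 and 0.27. In the comparison of R with B, limma called 0 of the 6 at a Benjamini-Hochberg adjusted p under 0.05, where 1.45% of the 138664 tested were called, and 0 of the 6 had an unadjusted p under 0.05. The same 0 of 6 came without B replicate 1 and R replicate 3. Cluster-64249.124918 was chosen for its swing in R and B and the rule read the same values. Nothing is therefore read from these counts or from the wide range within B. For Cluster-64249.124918 the difference on the log2(TPM + 1) scale was -0.05 ± 1.57 (SE).

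Over the 5 periods together, limma's F test called 5 of the 6 at an adjusted p under 0.05, the exception being Cluster-64249.134855, where 7.44% of all tested were called. The rule read the same values, so nothing is read from this count. Without B replicate 1 and R replicate 3 all 6 were called. The count fell to 3 without R replicate 1 or 2, and to 2 without B replicate 2 or 3 or P replicate 1 or 2. Of the variation of each member over the libraries on the log2 scale, between 13.7% for Cluster-64249.110193 and 35.6% for Cluster-64249.134855 lay within periods, and 21.6% for Cluster-64249.124918. The median over all 32754 rows was 53.9%. The rule read these values too, so nothing is read from the lower shares of the 6.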

How the data were processed

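The values deposited by the authors are TPM, as the table's name and equal column totals show. How transcripts were assembled, aligned and quantified is not given in the sources used here. Per the submitters' processing notes, the genome build was entered as GRCm38 and mm10, both names for the same mouse assembly, with no role stated. All 15 columns matched a library by title, and no pair of libraries held identical values. Correlations were computed on log2(TPM + 1) in NumPy 2.4.6 and pandas 2.3.3 under Python 3.11.15. In R 4.3.3, a limma 3.58.1 model of 5 period means with a variance trend was fitted to the tested transcript clusters. These were the 138664 with at least 1 TPM in at least 3 libraries. The model was also run on simulated data whose spread in each row was the same in all periods. The spread of Cluster-64249.124918 differed between periods, so that run does not bear on it. P-values measure only the spread between these samples, which may be technical. A difference on the log2(TPM + 1) scale understates the change of low transcripts. The members, the lists and the tests were chosen with earlier results of these data known. The rule for named transcript clusters took the members, the 3 rows just outside the limit and the 3 most negative rows. Leaving out B replicate 1 and R replicate 3 together, and following Cluster-64249.132825, were added after seeing the data.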

Additional observations from a re-analysis of the deposited data

How the results depend on the processing

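The number of transcript clusters that follow Cluster-64249.124918, 6 with that row, depended on the limits: 16 at a mean TPM of at least 1, 27 with no filter, 29 at a correlation of at least 0.85, 3 at 0.95 and 12 with Spearman correlation. It was 6 with a pseudocount of 0.1 or median-ratio scaling and 5 at a mean TPM of at least 10. Leaving out 1 library gave 5 to 14, with 13 without B replicate 1 and 14 without Y replicate 2. Leaving out the 3 libraries of a period gave 12 without R, 22 without B, 17 without P, 19 without G and 40 without Y, and leaving out B replicate 1 and R replicate 3 together gave 16. Cluster-64249.134855 was the only member lost under a pseudocount of 0.1, a mean TPM of at least 10, Spearman correlation, or without R replicate 1 or B replicate 2 or 3. The other single-library leave-outs and median-ratio scaling kept all 6.

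The F test over the 5 periods called 2 members with no filter and 2 to 6 when 1 library was left out, and the R against B comparison called 0 under every alternative run. The range of the members' level was 1.58 among the R and 3.65 among the B libraries. Over the 12 rows chosen without R, 5 of them members, the range among R was 0.10. Over the 22 rows chosen without B, also with 5 members, the range among B was 0.16. For the members' level, leaving out 1 library gave 0.16 to 1.58 in R, lowest without R replicate 3. In B it gave 0.081 to 3.65, lowest without B replicate 1. The members' level of R minus B ran from -1.52 to 0.31 when 1 library was left out. Over the 40 rows chosen without both periods, a largely different set with only 2 members, R minus B was 0.62.

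No strong pairing of the samples by replicate number was seen. The deviations of same-numbered libraries correlated between -0.061 and 0.077 over 30 pairs, and 7 of 15 libraries correlated best with their own number. Whether a weak pairing exists cannot be told from these values. With the replicate number as a block, the F test called 3 members and R against B called 0, and subtracting each replicate number's mean gave 13 rows at 0.9. Read depth is unknown, so the precision of the values near 0 in P and G is too.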
